A study of Mus musculus with 48 samples.

Results

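Counts of 10 skeletal muscle genes that build the sarcomere or mark the fibre type were followed in libraries of left nodose ganglia: the myosin heavy chains Myh4, Myh1, Myh2 and Myh7, skeletal α-actin Acta1, the fast and slow troponin T genes Tnnt3 and Tnnt1, the fast-fibre α-actinin Actn3, muscle creatine kinase Ckm and the calcium buffer Pvalb. They were taken by name from a table of raw counts and are 10 of its 25229 gene symbols. Skeletal muscle contracts through the sarcomere, in which thick filaments of myosin pull on thin filaments of actin under the control of the troponin complex. Fibres are called fast or slow mainly by the myosin heavy chain they hold, with Myh4 (type IIb), Myh1 (type IIx) and Myh2 (type IIa) marking fast fibres and Myh7 marking slow fibres. A sensory ganglion is not made of muscle fibres, and the nodose ganglion is known for the cell bodies of vagal sensory neurons and for the satellite and Schwann cells around them.

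The study sequenced left nodose ganglia and, as a second tissue, punches of the arcuate nucleus, a hypothalamic centre of feeding control. The mice were male, 10 to 12 weeks old, chow-fed, on a C57Bl/6J background, and all of them, controls included, were Reverb a/b fl/fl, carrying floxed alleles of Nr1d1 and Nr1d2, which encode the clock repressors REV-ERBα and REV-ERBβ. At 6 to 10 weeks of age they received a tail vein injection of AAV8-TBG-EGFP (Control) or AAV8-TBG-Cre (HepDKO), and tissue was taken 2 to 4 weeks later at 4, 10, 16 or 22 h of zeitgeber time (ZT, counted from lights on). The TBG promoter is active in hepatocytes, so Cre was directed at the liver and not at the ganglion. Each nodose library pooled the left ganglia of 4 mice and each arcuate library pooled punches of 3 to 4 mice. With 3 libraries in each of 8 groups of genotype and time there were 24 nodose libraries, which carry the results below, and 24 arcuate libraries, which serve as background.

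Nodose libraries held 1813994 to 10422914 counts (median 6641665) and arcuate libraries 15483922 to 20399718 (median 17324244). A pair of nodose Control libraries, ZT4 replicate 1 and ZT16 replicate 3, held 1813994 and 2889210 counts, and the next lowest held 4169415. Neuron genes were scarce in the nodose libraries: 16 listed genes took 0.00260% to 0.00937% of counts, and 9 of them had a median under 1 CPM (the usual unit of counts scaled to a common library total). The 8 listed genes of Schwann cells, the myelinating glia of peripheral nerves, took 1.48% to 4.36%. The 8 adipocyte genes took 0.0181% to 0.178%. Nr1d1, which encodes REV-ERBα, spanned 14.5 to 124 CPM in Control (median 40.2) and 11.2 to 132 in HepDKO nodose libraries (median 51.4), on the scale of trimmed-mean (TMM) factors used below. With Cre directed at hepatocytes this does not check the labels. HepDKO ZT10 replicate 2 held 1694 counts of Xist, a transcript of the inactive X chromosome of females, and the other 23 nodose libraries at most 13. Leaving that library out changed no call on the 10 genes.

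The fast myosin genes lie next to each other on mouse chromosome 11, at chr11:67171027-67197517 (Myh2), chr11:67200052-67224575 (Myh1) and chr11:67238029-67260446 (Myh4), all on the plus strand (mm10, GENCODE vM21). Myh7 lies at chr14:54970684-54994626, Acta1 at chr8:123891769-123894751, Tnnt3 at chr7:142498836-142516009, Tnnt1 at chr7:4504570-4516382, Ckm at chr7:19404776-19422841, Actn3 at chr19:4861216-4877909 and Pvalb at chr15:78191114-78206400. RefSeq promoter sequences of build GRCm38.p6 were matched by symbol for 8 of the 10 genes, all but Tnnt3 and Actn3. Shown are the promoters of the 3 neighbouring fast myosin genes, whose levels differed widely. Those of Acta1, the highest of the 10 genes per kilobase of annotated exon, and of Myh7, the lowest, are also shown. Each runs 5′ to 3′ on the strand of its gene up to the base before the RefSeq start site, except that Myh1 stops where the first GENCODE exon begins. Capitals mark the letters TATAAA, the CArG box (the site of serum response factor) and the wider form of the MEF2 box (the site of the myocyte enhancer factors), on either strand.
Myh4 (chr11:67237562-67237811, plus strand): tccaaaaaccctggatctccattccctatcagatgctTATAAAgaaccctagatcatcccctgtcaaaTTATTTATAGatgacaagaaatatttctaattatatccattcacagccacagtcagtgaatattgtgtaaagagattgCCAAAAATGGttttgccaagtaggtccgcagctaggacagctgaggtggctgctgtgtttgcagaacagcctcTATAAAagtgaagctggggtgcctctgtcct
Myh1 (chr11:67199852-67200051, plus strand): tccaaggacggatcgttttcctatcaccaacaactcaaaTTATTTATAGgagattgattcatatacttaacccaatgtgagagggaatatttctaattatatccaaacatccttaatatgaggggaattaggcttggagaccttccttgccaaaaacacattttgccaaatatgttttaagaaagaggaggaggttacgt
Myh2 (chr11:67170777-67171026, plus strand): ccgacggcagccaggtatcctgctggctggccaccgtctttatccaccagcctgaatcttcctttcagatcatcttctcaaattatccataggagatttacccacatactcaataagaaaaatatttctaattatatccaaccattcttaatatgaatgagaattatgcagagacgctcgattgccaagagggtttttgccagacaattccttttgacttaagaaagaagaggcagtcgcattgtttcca
Acta1 (chr8:123894776-123895025, minus strand): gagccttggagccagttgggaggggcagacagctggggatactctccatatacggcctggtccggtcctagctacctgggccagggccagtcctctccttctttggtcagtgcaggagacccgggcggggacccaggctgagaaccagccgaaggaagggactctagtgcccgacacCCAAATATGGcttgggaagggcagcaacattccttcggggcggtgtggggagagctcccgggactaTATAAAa
Myh7 (chr14:54994627-54994876, minus strand): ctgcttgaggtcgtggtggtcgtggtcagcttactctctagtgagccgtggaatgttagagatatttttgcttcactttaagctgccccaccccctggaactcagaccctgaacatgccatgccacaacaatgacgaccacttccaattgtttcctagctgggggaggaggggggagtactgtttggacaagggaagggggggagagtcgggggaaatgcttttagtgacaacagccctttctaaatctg

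The windows of Myh1, Myh2 and Myh4 share a run of 20 bases, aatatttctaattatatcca, which starts 165, 130 and 163 bases before their RefSeq start sites. The wider MEF2 box occurred in Myh1, Myh4 and Pvalb, in 3 of the 8 windows of 250 bases and in 2.92% of 32851 RefSeq windows of that length. In Myh1 and Myh4 it read TTATTTATAG, and a match to TATAAA on the opposite strand lies inside it. The wider form was added after the strict form had been searched. The strict form of the MEF2 box was in 0 of 8 windows (0.508% of all). The CArG box occurred in Myh4 and Acta1 (1.47% of all windows), TATAAA in Myh1, Myh4, Acta1 and Tnnt1 (12.4%), and the E-box CANNTG, the site of the myogenic factors, in Myh4, Myh7, Acta1, Ckm and Tnnt1 (66.2%). Myh2 held none of these motifs in its window. TATAAA ended the window of Acta1, starting 7 bases before its RefSeq start site, which lies 24 bases upstream of the GENCODE start; in Myh4 it started 31 bases before, and in Myh1 32 bases before, outside the printed stretch. A match is a description of letters only, and the deposited data hold no measure of binding.

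The 10 genes together took 0.536% to 7.26% of all counts in nodose libraries, with a median of 3.71%. In 22 of 24 libraries they took over 2%. The lowest shares, 0.536% (95% Wilson interval 0.527% to 0.544%) and 1.16% (1.14% to 1.17%), were those of Control ZT16 replicate 3 and Control ZT4 replicate 1, the shallowest libraries. The highest were 7.26% (7.24% to 7.28%) in Control ZT10 replicate 1 and 7.08% (7.06% to 7.10%) in HepDKO ZT22 replicate 3. Control libraries spanned 0.536% to 7.26% (median 3.37%) and HepDKO libraries 2.67% to 7.08% (median 4.00%), so the range of HepDKO lay inside that of Control. Including the other sarcomere and fibre genes listed below, muscle genes took a median of 13.7%, of which the giant spring protein titin (Ttn) alone took a median of 5.18%. In arcuate libraries the 10 genes took 0.00181% to 0.00608%. These are bulk libraries, so fewer muscle fibres and less RNA per fibre cannot be told apart.

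**Figure D1:**
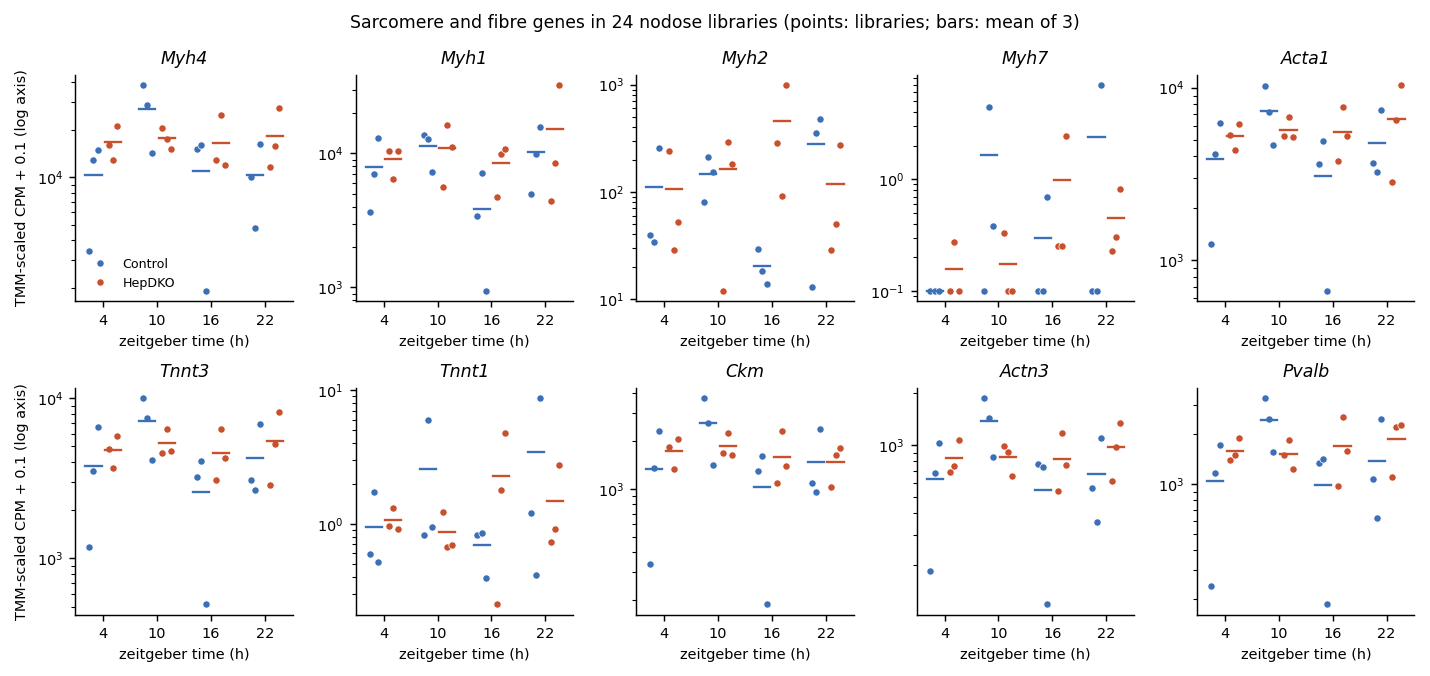
Each panel gives the TMM-scaled CPM of a gene plus 0.1 on a log axis against zeitgeber time in hours; points are the 24 nodose libraries, blue for Control and orange for HepDKO, and bars are means of 3 libraries. Control ZT4 replicate 1 and Control ZT16 replicate 3 lie low in the panels of Myh4, Acta1, Tnnt3, Ckm, Actn3 and Pvalb, and genotypes overlap at every time in every panel except Myh2 at ZT16.

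Levels between genes were compared per kilobase of annotated exon, as TMM-scaled CPM. Annotated exons cover 1536 bases for Acta1 and 1583 for Tnnt3. Their longest coding transcripts have 1446 and 1079 bases, so the order of Acta1 and Tnnt3 depends on the length used. Acta1, the actin of the thin filament, had the highest median at 3383 CPM per kb, followed by Tnnt3 at 2779, Myh4 at 2514, Myh1 at 1445, Pvalb at 1437, Ckm at 557 and Actn3 at 266. Myh2 followed at 12.0, Tnnt1 at 0.366 and Myh7 at 0.00737. Acta1 exceeded Tnnt3 in 22 of 24 libraries, Tnnt3 exceeded Myh4 in 16 and Myh4 exceeded Myh1 in 21. Myh1 exceeded Pvalb in only 9 of 24, so these neighbours were not ordered beyond their spread. From Pvalb downward each gene exceeded the next in all 24 libraries.

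Nearly all myosin counts were of the fast-fibre genes. Myh4, the heavy chain of the fastest fibres, spanned 1912 to 38449.6 TMM-scaled CPM over the 24 libraries (median 15122). Myh1 spanned 941 to 32562 (median 9180.4). Myh2, the heavy chain of fast oxidative fibres, spanned 11.8 to 996 (median 86.0), which is 84.5-fold between its lowest and highest library. The corresponding span was 20.1-fold for Myh4 and 34.6-fold for Myh1. These spans rest on single libraries. The lowest for Myh4 and Myh1 was the shallow Control ZT16 replicate 3. The highest for Myh2 was HepDKO ZT16 replicate 3, and Control libraries reached at most 474. Without the 2 shallowest libraries the SD of log2 levels went from 0.953 to 0.610 (Myh4), 1.003 to 0.745 (Myh1) and 1.84 to 1.81 (Myh2). Myh7, the heavy chain of slow fibres and of the heart, had 0 counts in 12 libraries and at most 42 in any.

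Of the counts of these 4 myosins, Myh4 took 31.8% to 81.4% (median 66.2%), Myh1 18.4% to 65.9% (median 33.4%) and Myh2 0.0452% to 4.21% (median 0.466%). Myh7 took at most 0.0212%. Counts of Myh1 were 0.226 to 2.07 times those of Myh4 (median 0.504). Myh1 exceeded Myh4 in 3 libraries, with ratios of 1.07 in Control ZT4 replicate 1, 1.18 in HepDKO ZT22 replicate 3 and 2.07 in Control ZT22 replicate 2. The lowest ratio, 0.226, was in Control ZT16 replicate 1. Reads of these genes can be hard to assign: 32.1% of the 50-base stretches of the longest Myh1 transcript, 28.9% for Myh2, 18.9% for Myh4 and 28.2% for Myh7 also occur in another gene's transcripts. At 100 bases the shares were 14.7%, 11.2%, 3.85% and 13.9%. How reads with several matches were counted is not given in the sources used here.

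**Figure D2:**
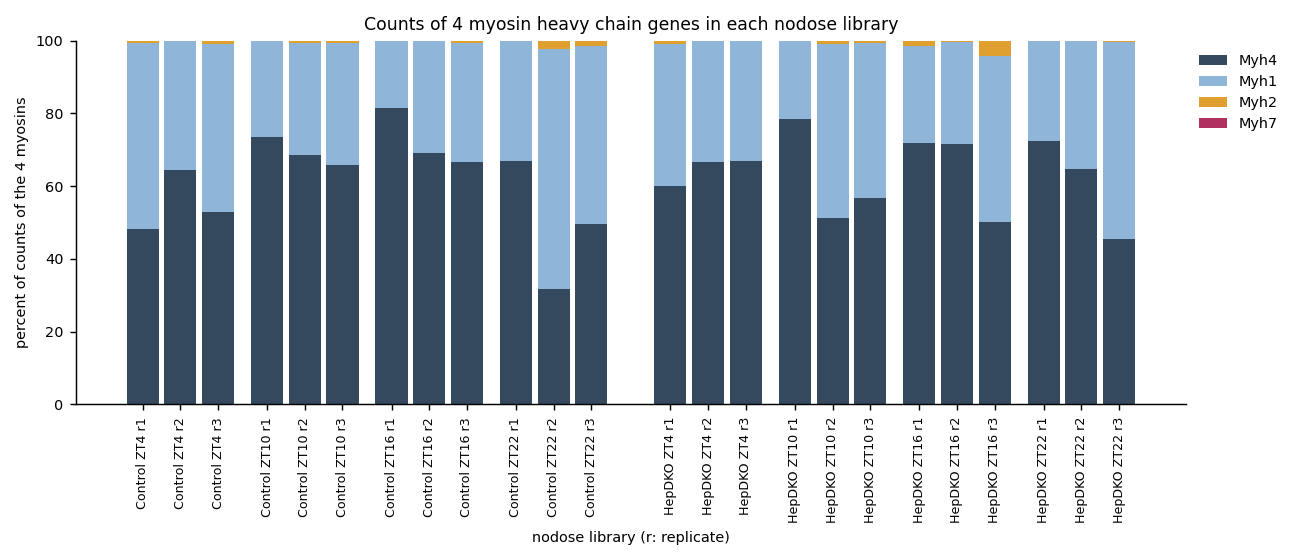
Stacked bars give the percent of the counts of Myh4, Myh1, Myh2 and Myh7 in each of the 24 nodose libraries, 12 Control on the left and 12 HepDKO on the right. Myh4 is the larger share in all but 3 libraries, Myh2 reaches 4.21% in HepDKO ZT16 replicate 3, and Myh7 is too small to see.

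Counts of troponin T were almost all of the fast form. Troponin T ties the troponin complex to tropomyosin, and fast and slow fibres use different genes for it. Tnnt3, the fast form, spanned 518 to 10006 TMM-scaled CPM (median 4399). Tnnt1, the slow form, spanned 0.150 to 8.62 (median 0.808), which rests on 1 to 57 counts a library. Tnnt1 made up 0.00483% to 0.124% of the counts of both genes. Tnni1, the slow troponin I, made up 0.0333% to 0.482% of the counts of Tnni1 and the fast gene Tnni2. Acta1 spanned 662 to 10387 TMM-scaled CPM (median 5196).

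The remaining genes are used by fast fibres or by muscle in general. Actn3, which crosslinks actin at the Z-disc of fast fibres, spanned 119 to 1866 TMM-scaled CPM (median 770.4). Ckm, which regenerates ATP from phosphocreatine, spanned 189 to 3721 (median 1623). Pvalb, which binds calcium to speed relaxation of fast fibres, spanned 187 to 3310.5 (median 1496). For these 3 genes the lowest library was Control ZT16 replicate 3 and the highest Control ZT10 replicate 1. Pvalb is also a marker of proprioceptive and inhibitory neurons, and 8 genes that accompany it there took 0.0106% to 0.0163% of counts together. The 4 with the highest means were Kcnc1, Ntrk3, Etv1 and Kcnc2, at medians of 45.1, 33.0, 35.8 and 5.35 TMM-scaled CPM. Over the libraries their log2 levels had r with Actn3 of 0.838, -0.779, -0.379 and 0.0216, given as descriptions. The lowest by mean, Gad1, which makes the transmitter GABA, had a median of 1.09.

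Other genes of fast and slow fibres were read from lists. All 15 listed fast-fibre genes had a median over 100 TMM-scaled CPM, led by the calcium pump Atp2a1 at 8496, the myosin light chain Myl1 at 2030.1, the troponin C gene Tnnc2 at 1653 and Tnni2 at 1354. Of 15 listed slow-fibre genes, 3 had a median over 100 and 8 a median under 10. The 4 with the highest means were Mybpc1 at a median of 1086, the slow calcium pump Atp2a2 at 170.4, tropomyosin 3 (Tpm3) at 139 and Smtnl1 at 55.1. Mybpc1, a myosin-binding protein, is also found in fast fibres, and Atp2a2 and Tpm3 are used by many cell types. Of muscle genes that both fibre types share, in the sarcomere or outside it, all 25 listed were measured. Ttn (53309.7), nebulin (Neb, 6718), Tpm2 (2109) and the calcium release channel Ryr1 (2124) had the highest means, given here as medians.

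In 3 libraries Myh7 and Tnnt1 stood apart, as the plot of their counts shows. Myh7 had 19 counts in HepDKO ZT16 replicate 3, 42 in Control ZT10 replicate 2 and 28 in Control ZT22 replicate 3, with exact Poisson intervals of 11.4 to 29.7, 30.3 to 56.8 and 18.6 to 40.5. The other 21 libraries had 0 to 4. Tnnt1 had 38, 57 and 35 counts in the same libraries and 1 to 15 elsewhere. The libraries belong to 2 genotypes and 3 time points, and their replicates did not share the pattern. They were picked by their values, so no test is given.

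Genes outside the 10 whose levels over the 24 libraries were most like those of Myh7 and Tnnt1 were sought by Pearson r; because the 3 libraries stand apart, their counts are given and no r. Myh13, the superfast myosin known from extraocular and laryngeal muscle, ranked first for both, with 112, 146 and 55 counts in the 3 libraries and 0 to 9 elsewhere. Tnnc1, the troponin C of slow fibres and heart, ranked second for both, with 15, 23 and 12 counts against 0 to 5. Myh6, Igtp and Myh7b followed for Myh7, and Bloc1s6, Rcan1 and Armh4 for Tnnt1. Among listed genes, Myl3, a slow myosin light chain, had 7, 7 and 6 counts against 0 to 2. Myh3, the embryonic myosin, had 11, 18 and 13 against 0 to 6. On the same list of developing or specialised muscle genes, Myh8 and Actc1 did not follow. Myh8 had 1163, 341 and 222 counts against 0 to 815, and Actc1 465, 1481 and 206 against 32 to 2397. Most slow-fibre genes did not share the pattern. Of the 15 listed beside Myh7 and Tnnt1, only Tnnc1 and Myl3 had these 3 libraries as their 3 highest by TMM-scaled CPM. For Myoz2 and Ankrd2, 2 of the 3 highest libraries were among them, for 7 genes (Myl2, Myh7b, Casq2, Mybpc1, Csrp3, Fhl2 and Atp2a2) it was 1, and for Tnni1, Tpm3, Myl6b and Smtnl1 it was 0. Tnni1 had 11, 20 and 8 counts against 1 to 21, and Myl2, the slow regulatory light chain, 0, 0 and 3 against 0 to 3. Even in these libraries Myh7 was at most 0.0212% of the 4 myosins.

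**Figure D3:**
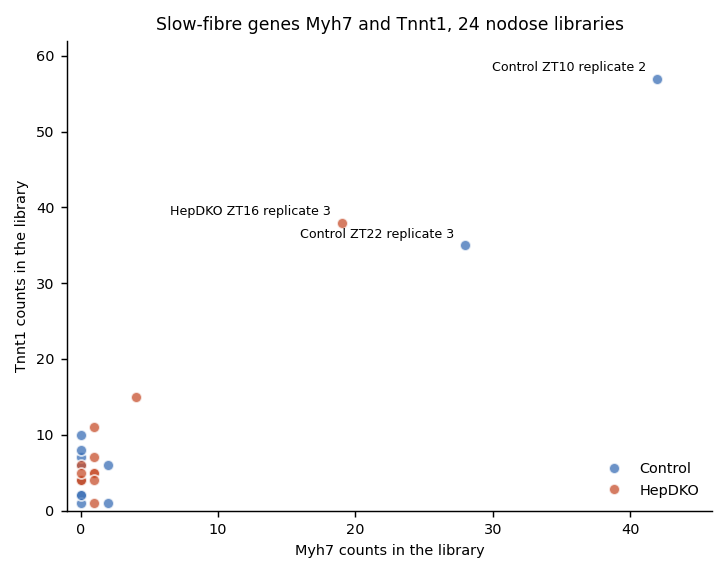
Each point is a nodose library, placed by its raw counts of Myh7 (x axis) and Tnnt1 (y axis), blue for Control and orange for HepDKO. The 3 labelled libraries hold 19 to 42 counts of Myh7, and the other 21 hold 0 to 4 of Myh7 and 1 to 15 of Tnnt1.

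Levels of the muscle genes varied together among libraries. Pearson r of log2 (TMM-scaled CPM + 0.5) was 0.934 to 0.991 for the 15 pairs of Acta1, Tnnt3, Ckm, Actn3, Pvalb and Myh4 over 24 libraries, and Spearman rho 0.860 to 0.977. Each Pearson r had a permutation p of 1e-05, the smallest that 100000 permutations can give, and 2.5e-05 after Benjamini-Hochberg adjustment over 45 pairs. Within genotype, r was 0.944 to 0.997 in the 12 Control and 0.733 to 0.973 in the 12 HepDKO libraries. Leaving out Control ZT4 replicate 1 and Control ZT16 replicate 3, which were also the farthest from the median for these genes, gave 0.811 to 0.973, and deviations from group means gave 0.943 to 0.992. The strongest pair was Acta1 with Tnnt3.

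Myh1 and Myh2 followed less closely. Myh1 had r of 0.721 (with Myh4) to 0.890 (with Tnnt3) with those 6 genes (rho 0.633 to 0.867, largest adjusted permutation p of r 0.000348). Without the 2 shallowest libraries r was 0.420 to 0.815, and without the 2 farthest from the Myh1 median, Control ZT16 replicate 3 and HepDKO ZT22 replicate 3, it was 0.475 to 0.800. Within genotype it was 0.756 to 0.918 in Control and 0.611 to 0.879 in HepDKO. Myh2 had r of 0.234 (with Myh4) to 0.659 (with Myh1) with the 7 other genes of this group, with rho of 0.180 to 0.708 and adjusted permutation p-values of r from 0.000372 to 0.308. Within HepDKO, Myh2 had r of -0.137 to 0.530 with them and within Control 0.321 to 0.742. Without the 2 shallowest libraries its r was -0.0457 to 0.632. Myh1 and Myh2 share 19.7% of their 50-base stretches with each other and Myh4 shares 10.6% with Myh1; the part of such stretches in these correlations was not tested. Of the 28 pairs among these 8 genes, 24 had an adjusted p under 0.05. For the 17 pairs with Myh7 or Tnnt1 no pooled r is given, since 3 libraries stand apart, and their calls are not read.

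**Figure D4:**
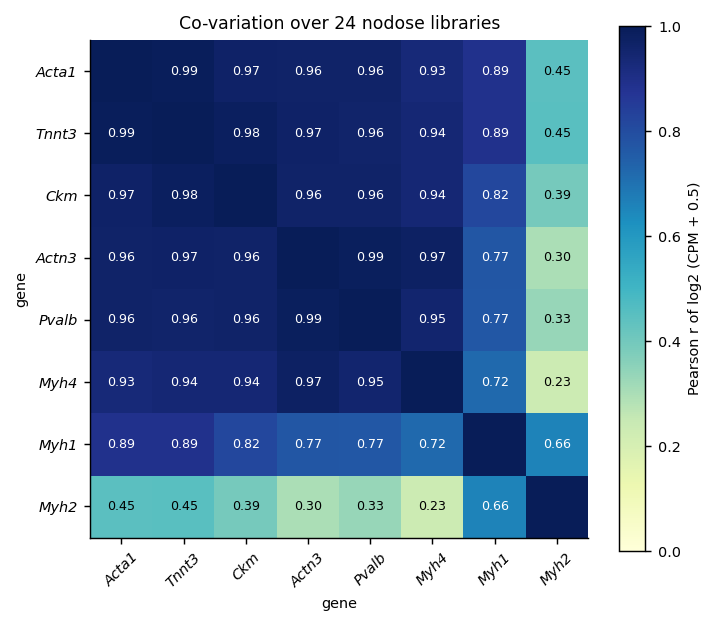
The map gives Pearson r of log2 (TMM-scaled CPM + 0.5) between 8 genes (both axes) over the 24 nodose libraries, from 0 (pale) to 1 (dark). The block from Acta1 to Myh4 lies at 0.934 to 0.991, Myh1 at 0.659 to 0.890 and Myh2 at 0.234 to 0.659.

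Outside the 10 genes, those most like Actn3 by the same measure included Myoz1 (r 0.977), Pygm (0.973), Casq1 (0.972) and Tmod1 (0.970). These r are descriptions of genes picked from all genes for likeness. Those most like Pvalb, again outside the 10, were Casq1 (0.983), Mylpf (0.981), Myl1 (0.980), Mlf1 (0.973) and 2310065F04Rik (0.971). Myoz1 is a Z-disc protein, Pygm the muscle glycogen phosphorylase, Casq1 the calcium store protein of fast fibres, and Mylpf and Myl1 myosin light chains. Over the lists, r with Actn3 was over 0.8 for 14 of 15 fast-fibre genes and 23 of 25 shared muscle genes. It was over 0.8 for 2 of 15 genes listed as slow, namely Mybpc1 (0.921) and Smtnl1 (0.843).

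The mixture of Myh1 and Myh4 was set beside other fast-fibre genes. These relations, and those with other cell types given next, were picked after the values were seen, 12 in all, so their p-values do not stand as independent support. The log2 ratio of Myh1 to Myh4 had r of 0.598 with log2 Myh2 (rho 0.591, adjusted permutation p 0.00434 and 0.00816), -0.775 with the log2 ratio of Actn3 to Acta1 (rho -0.717, 6e-05 and 0.0006) and -0.700 with that of Pvalb to Acta1 (rho -0.555, 0.0008 and 0.0144). With the ratio of Ckm to Acta1 r was -0.415 (rho -0.363, adjusted permutation p 0.0709 and 0.123), with that of Tnnt3 to Acta1 -0.0502 (rho -0.0870, 0.816 and 0.720), and with log2 Myh8, the perinatal myosin, 0.226 (rho 0.398, 0.340 and 0.111). The last 3 did not pass. Without the 2 libraries with the most extreme ratios, Control ZT22 replicate 2 and HepDKO ZT22 replicate 3, r with Myh2, Actn3 and Pvalb was 0.551, -0.663 and -0.524. Within Control r was 0.545, -0.881 and -0.798, and within HepDKO 0.731, -0.722 and -0.533. The shared bases of Myh1, Myh2 and Myh4 named above bear on the first relation, and their part was not tested.

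Summed markers of other cells were set beside Actn3 as a measure of the amount of muscle RNA. All are parts of the same total of counts, so a larger share of muscle lowers the other shares. TMM scaling may not fully remove this, and its part in the relations below was not tested. Log2 Actn3 had r of -0.642 with the Schwann cell genes (rho -0.603, adjusted permutation p 0.00135 and 0.00816), -0.586 without the 2 shallowest libraries, -0.798 within Control and -0.0680 within HepDKO, so the relation was not seen within HepDKO. With the neuron genes r was -0.667 (rho -0.377, adjusted permutation p 0.00554 and 0.117) but -0.248 without those libraries, -0.779 within Control and 0.267 within HepDKO. This relation rests on the shallow libraries. With the adipocyte genes r was 0.336 (rho 0.211, adjusted permutation p 0.142 and 0.429), 0.513 within Control and -0.292 within HepDKO, and it did not pass. With the 7 smooth muscle genes r was 0.837 (rho 0.806, adjusted permutation p 6e-05 and 0.00024), but the most abundant of them is Des, the intermediate filament desmin, which skeletal muscle also holds. Without Des r was 0.119 (rho 0.0765, adjusted permutation p 0.636 and 0.720). With total counts r was 0.621 (rho 0.11, adjusted permutation p 0.00825 and 0.720), and -0.0326 without the 2 shallowest libraries. Schwann cell genes spanned 1.48% to 4.36% of counts in Control and 1.66% to 3.31% in HepDKO, adipocyte genes 0.0181% to 0.178% and 0.0249% to 0.134%, and neuron genes 0.00260% to 0.00937% and 0.00267% to 0.00398%. In the genotype and time-of-day comparisons that follow, no gene of the 10 passed with the adipocyte and Schwann cell sums as covariates or without the 2 shallowest libraries.

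Between genotypes the 10 genes did not differ beyond the spread of the libraries. Myh4 was 14734 ± 10350.4 TMM-scaled CPM in Control and 17293 ± 5181 in HepDKO (mean ± SD, n = 12 each), and Acta1 was 4765 ± 2679 and 5775 ± 1964. With the 4 time points weighted equally, HepDKO minus Control on the log2 scale ran from -0.52 (Myh7, SE 5.16) and -0.29 (Tnnt1, SE 0.571) to 0.47 (Myh1, SE 0.352) and 0.82 (Myh2, SE 0.637), with a median of 0.27 over the 10 genes and 0.01 over all 14867 genes tested. In edgeR's quasi-likelihood test 0 of 10 passed, each at a Benjamini-Hochberg adjusted p of 1.00, where 0% of all genes passed; at an unadjusted p under 0.05 these were 0 of 10 and 3.34%. DESeq2 passed 3 genes, none of the 10. Without the 2 shallowest libraries, both Control, the values of Ckm, Actn3 and Myh7 changed sign, to -0.11, -0.0285 and 0.15. Of the other lists, 0 of 15 fast, 0 of 13 slow and 0 of 25 shared muscle genes tested passed, with medians of 0.33, 0.08 and 0.36.

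At single time points 0 of 10 genes passed by edgeR, where 0% of all genes did at each of the 4. Myh2 came nearest, at ZT16. It had 29.0, 18.2 and 13.8 TMM-scaled CPM in the 3 Control libraries and 283, 91.5 and 996 in the 3 HepDKO libraries. The groups did not overlap, as for 7.4% of all genes with HepDKO above Control at ZT16 and 8.18% with HepDKO below. No other gene of the 10 was without overlap at any time point. Of all genes, 4.03% lay above and 4.1% below without overlap at ZT4, 5.34% and 4.25% at ZT10, and 2.43% and 2.99% at ZT22. The log2 fold change of Myh2 was 4.46 (SE 1.46, unadjusted p 0.00718, adjusted p 0.844, edgeR). At the other time points it was -0.07 (ZT4), 0.13 (ZT10) and -1.25 (ZT22). By unadjusted p it was the only 1 of the 10 under 0.05 at ZT16, where 4.94% of all genes were, and at ZT4, ZT10 and ZT22 none was, where 2.36%, 2.04% and 5.25% of all genes were. DESeq2 passed 0 genes at each time point. The median log2 fold change of the 10 genes was 0.39, -0.55, 0.84 and 0.39 at the 4 successive time points, beside 0.01 over all genes at each. Single libraries moved each of these medians. At ZT4 it was -0.05 without Control replicate 1, 0.25 without HepDKO replicate 3 and 1.02 without Control replicate 3. At ZT10 it was -0.22 without Control replicate 1 and -0.85 without Control replicate 3. At ZT16 it was 0.33 without Control replicate 3, 0.51 without HepDKO replicate 2 and 1.34 without Control replicate 2. At ZT22 it was -0.12 without HepDKO replicate 3, 0.68 without HepDKO replicate 1, and 0.20, 0.10 and 0.97 without Control replicates 1, 2 and 3. With adipocyte and Schwann cell sums as covariates the medians at ZT4 and ZT10 were -0.04 and -0.10. Over 31 alternative settings the ZT16 value of Myh2 ran from 3.18 to 4.93 and its adjusted p from 0.535 to 1.00. HepDKO ZT16 replicate 3, the highest library, is also 1 of the 3 with high Myh7 and Tnnt1 described above.

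Time of day gave 0 of 10 genes past the threshold, averaged over genotypes, where 1.11% of all genes passed (165 of 14867; 421 with DESeq2, none of the 10). At an unadjusted p under 0.05 these were 0 of 10 and 12.4%. The range of the 4 time point means was 0.58 (Pvalb) to 1.13 (Myh1) on the log2 scale for the 8 genes other than Myh7 and Tnnt1, against a median of 0.28 over all genes; adjusted p-values by edgeR were 0.573 to 0.895. The difference of the daily pattern between genotypes gave 0 of 10 and 0% by edgeR. At an unadjusted p under 0.05 these were 1 of 10 and 2.36%, the 1 being Myh2 (p 0.0470, edgeR, adjusted p 0.935). DESeq2 passed 0 genes.

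Fibre type was compared between groups as the log2 ratio of slow to fast counts within each library, with 0.5 added to each count. The ratio of Tnnt1 to Tnnt3 was -11.63 ± 1.31 in Control and -12.15 ± 1.01 in HepDKO (mean ± SD, n = 12 each), a difference of -0.52 with a two-sided permutation p of 0.304, and between time points the permutation p was 0.973. For Myh7 to Myh4 the difference was -0.64, with a permutation p of 0.497 between genotypes and 0.858 between time points, and it turned to 0.19 without the 2 shallowest libraries. Myh7 had 0 counts in 12 of the 24 libraries, where this value is the added 0.5 over the counts of Myh4 and so follows depth and Myh4; nothing is read from it about slow and fast fibres. All 4 p-values were 0.973 after adjustment. The ratio of Myh1 to Myh4, added after the data were seen, was -0.74 ± 0.842 and -0.83 ± 0.636, with a permutation p of 0.756 between genotypes and 0.229 between time points (0.973 and 0.913 adjusted over 6 tests). Its difference of -0.09 changed sign without both shallow libraries (0.0141), without HepDKO ZT10 replicate 1 (0.0430) and without Control ZT22 replicate 2 (0.0404).

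Arcuate libraries held little of the fast genes, and 8 of 10 genes were higher in nodose and 1 lower by edgeR at an adjusted p under 0.05, where 45.6% of 17478 genes were higher and 46.6% lower. In either direction these were 9 of 10 and 92.1%, and at an unadjusted p under 0.05 also 9 of 10 and 92.3%. A share of 9 in 10 is thus near the background. Tissue and library preparation differ together, since nodose libraries were made from ribosomal-RNA-depleted total RNA and arcuate libraries by a commercial service, and these cannot be told apart. For the 8 genes higher in nodose, the fold changes over arcuate ran from 7.67 (Pvalb, SE 0.286) to 15.06 (Myh1, SE 0.439) on the log2 scale. Counts in arcuate libraries were 0 to 62 for Myh1 (median 5.5), 2 to 211 for Myh4 (13.5), 1 to 48 for Ckm (3) and 46 to 185 for Acta1 (64). The highest of these, and the 91 counts of Tnnt3, were all in HepDKO ZT22 replicate 1, an arcuate library with 0.00608% of its counts in the 10 genes.

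Of the slow genes, Myh7 was lower in nodose and Tnnt1 did not pass. Myh7 had 109 to 206 counts in every arcuate library (6.38 to 11.1 CPM of all counts) against 0 to 42 in nodose (0 to 6.72 CPM). The highest nodose value thus lay inside the arcuate range. The log2 difference of Myh7 was -5.18 (SE 0.410, edgeR adjusted p 7.8e-14). Myh7 shares 22.2% of its 50-base stretches with Myh6. Its exons share 484 bases with the antisense RNA Mhrt, listed at 0 in all nodose libraries. They also share 523 and 142 bases with the antisense genes Gm31251 and Gm29015, for which no counts are listed. The strand used in counting is not given in the sources used here. Tnnt1 had 7 to 50 counts in arcuate (0.388 to 3.23 CPM of all counts) and 1 to 57 in nodose (0.161 to 8.39 CPM). Its log2 difference was 0.26 (SE 0.316, edgeR adjusted p 0.425). Pvalb, known from inhibitory neurons of the brain, had 49 to 412 counts in arcuate. The same caution on strand holds for Myh1 and Ckm, whose exons share 515 and 451 bases with the antisense genes Myhas (median 89 nodose counts) and A930016O22Rik (median 97). It also holds for Myh2, whose exons share 237 bases with the antisense gene 9430073C21Rik, for which no counts are listed.

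**Figure D5:**
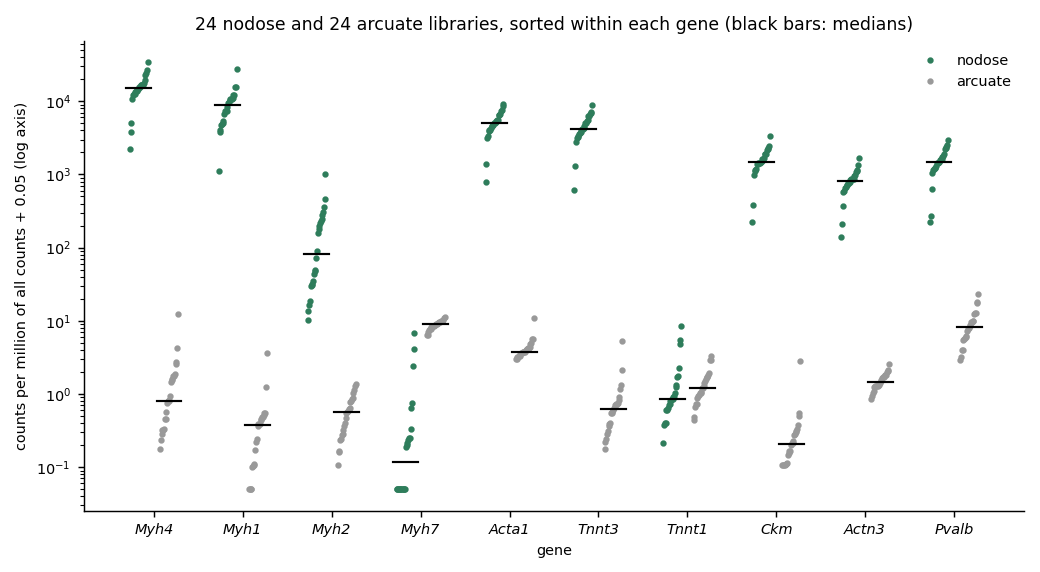
Points are the 24 nodose (green) and 24 arcuate (grey) libraries, sorted within each gene on the x axis; the y axis is CPM of all counts plus 0.05 on a log scale, and black bars are medians. Nodose lies above arcuate for 8 genes, and Tnnt1 overlaps. Myh7 lies lower in nodose, where 12 libraries are at 0, but its highest nodose library is inside the arcuate range.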

How the data were processed

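RNA-seq was run on 24 nodose and 24 arcuate libraries. The authors deposited a table of whole-number counts, with 1 row for each gene symbol. Reads were handled with FastQC 0.11.7, Trim Galore 0.6.10 and STAR 2.7.10b on mm10, per the submitters' processing notes; the counting tool, annotation, strand setting and treatment of reads with several matches are not given in the sources used here. Counts were tested with edgeR 4.0.16 (R 4.3.3): filterByExpr on groups, TMM factors, a robust quasi-likelihood fit with one mean per group, and Benjamini-Hochberg adjustment at 0.05 over all genes tested (14867 in nodose, 17478 in both tissues). All 10 genes passed the filter. Each SE is the absolute log2 fold change divided by the square root of the test's F statistic, not an error taken from the fit. For Myh7 it was 5.16 for the genotype average and 1.73 at ZT22, so it is unreliable for that gene between genotypes. DESeq2 1.42.0, DESeq2-type size factors, no filter, covariates, a replicate block and leaving out each library were alternatives. CPM were taken on TMM-scaled or plain totals. Ratios used counts plus 0.5, with 100000 permutations of genotype within time point, or of time point within genotype. Correlations used log2 (CPM + 0.5). Wilson and Poisson intervals are at 95% and cover counting error only; a count of 0 allows up to 3 counts, or 2.88e-05% to 0.000165% of a nodose library. Each library is a pool of mice labelled as a biological replicate, so p-values measure the spread between these pools. No replicates agreed within sampling noise (smallest chi-square per degree of freedom 8.12 over 24 pairs). The scripts were tested on simulated data. Of genes given a 2-fold change, 85.9% were recovered for the genotype average and 53% for genotype at ZT4. For time of day it was 77%, and 16.2% for the difference of the daily pattern between genotypes. At a 1.5-fold change these shares were 64.6%, 7%, 41.4% and 2.04%. Changes of these sizes can thus be missed, above all at single time points and in the daily pattern between genotypes.

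Members and lists were chosen with earlier results of these data known. Named were the 10 genes, the 4 genes of each further list with the highest mean nodose CPM, and the 5 genes outside the 10 most like Actn3, Pvalb, Tnnt1 and Myh7, some items not being reported here; Gad1, Tnni1, Myl3, Myh3 and Nr1d1 were named besides, after their values were seen. Lists also covered heart muscle (0.00375% to 0.0401% of nodose counts), smooth muscle (0.0922% to 0.301%), developing or specialised muscle (0.0220% to 0.0589%), red blood cells (0.0192% to 0.0670%, with 4 haemoglobin genes at 0 in all 48 libraries) and cartilage or other neck tissue (0.00155% to 0.00499%). Coordinates and shared stretches came from GENCODE vM21 on mm10, promoters from RefSeq on GRCm38.p6.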

Additional observations from a re-analysis of the deposited data

How the results depend on the processing

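No genotype or time-of-day value of the 10 genes in nodose libraries passed an adjusted p of 0.05 under any of the alternatives run (961 values, smallest adjusted p 0.299), and all 70 values between tissues kept their direction and call. For the genotype average, DESeq2 passed 3 genes, and leaving out single libraries gave 0 to 1 (1 without Control ZT4 replicate 2). For time of day, 165 genes became 421 with DESeq2, 270 with adipocyte and Schwann cell sums as covariates and 102 without both shallow Control libraries (ZT4 replicate 1 and ZT16 replicate 3). Leaving out single libraries gave 96 to 290: 96 without HepDKO ZT16 replicate 1, 103 without HepDKO ZT16 replicate 3, 106 without Control ZT16 replicate 1 and 290 without HepDKO ZT22 replicate 3. Without both shallow libraries, an alternative chosen after seeing the data, the log2 genotype values of Myh7, Ckm and Actn3 became 0.15, -0.11 and -0.0285, that of the Myh7 to Myh4 ratio 0.19 and that of the Myh1 to Myh4 ratio 0.0141. Leaving out single libraries moved Myh7 between -1.15 and 1.13 (0.29 without Control ZT10 replicate 2, 0.14 without Control ZT16 replicate 3, 1.13 without Control ZT22 replicate 3) and Tnnt1 between -0.60 and 0.20 (0.14 without Control ZT10 replicate 2, 0.20 without Control ZT22 replicate 3). The Myh1 to Myh4 difference ran from -0.22 to 0.0430 (0.0430 without HepDKO ZT10 replicate 1, 0.0404 without Control ZT22 replicate 2). With all sarcomere and fibre lists the median amount was 13.7% in place of 3.71%. Of all 45 pairs 31 passed, 7 of them with Myh7 or Tnnt1, and within HepDKO 19 passed. The causes were not tested, beyond fewer libraries entering a fit. Replicate numbers are shared across groups. Deviations of same-numbered libraries had a median r of 0.0025 over 84 pairs (25 above 0.1), beside -0.0112 for pairs of other numbers. With 3 numbers to choose from, 11 of 24 libraries correlated best with their own number, which was not tested. With the replicate block 152 genes passed for time of day and 0 for every genotype comparison, and no call on the 10 genes changed. Depth limits Myh7 and Tnnt1, which rest on at most 42 and 57 counts a library.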
